A study of Mus musculus with 13 samples.

Results

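The comparison described here set SM1 tumours of pmel-1 recipients given dabrafenib and trametinib together (3 arrays) against SM1 tumours of pmel-1 recipients given trametinib alone (2 arrays), across all genes measured. The members were taken from the sample titles and drug labels, and they are 5 of the 13 arrays of the study. It asks what a BRAF inhibitor adds to a MEK inhibitor in tumours that are also under attack by transferred T cells. SM1 is a transplantable mouse melanoma line driven by mutant BRAF, so all groups carry the same tumour line and that line is a single model. It was grown in C57BL/6 mice, which received splenocytes by adoptive cell transfer. In the pmel-1 groups the donors were pmel-1 mice, a strain with a transgenic T cell receptor for the melanocyte protein encoded by Pmel. The pmel-1 recipients were given dabrafenib with trametinib (3 arrays), dabrafenib (2), trametinib (2) or vehicle (2). Recipients of ordinary C57BL/6 splenocytes were given both drugs (2) or vehicle (2). Doses, times, the age of the mice and the number of animals behind an array are not stated. Since no source says that replicates are separate animals, the p-values below measure the spread between these samples, which may be technical.

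Dabrafenib blocks mutant BRAF and trametinib blocks MEK, the kinase directly below it, and both lower the activity of ERK in melanoma cells with mutant BRAF. As background, BRAF inhibitors do not block ERK signalling in cells with normal BRAF and can raise it, whereas MEK inhibitors act in any cell, including T cells, which use this pathway after their receptor is engaged. Activated T cells and natural killer cells release interferon gamma, which induces guanylate-binding proteins, immunity-related GTPases, chemokines that attract T cells, and the genes of antigen presentation in many cell types of a tumour.

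Total RNA was measured on Affymetrix GeneChip mouse arrays, and the values are log2 intensities per probe set. Expression levels below are on that log2 scale, where a difference of 1 is a 2-fold change. The markers on these 5 arrays fit the tumour label, since the melanocyte genes Pmel, Mlana and Sox10 read between 12.95 and 14.16 and the keratinocyte gene Krt14 between 5.18 and 5.35. The filter level for a gene to be tested was 5.79. Fat content differed within both groups, as the adipocyte hormone gene Adipoq read 5.47, 10.05 and 7.54 on the combination arrays, against 9.30 and 5.41 on the trametinib arrays. RNA quality overlapped between the groups, by the mean log2 ratio of 3′ over 5′ control probe sets. This log2 ratio was 1.66, 1.81 and 1.46 on the combination arrays, against 1.78 and 1.51 on the trametinib arrays. The part of either in the results was not tested beyond the refits given in the closing section. In tumour tissue as a whole, fewer cells of a type and less RNA per cell cannot be told apart.

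Tumours given both drugs had higher expression of interferon-induced and leukocyte genes than tumours given trametinib alone, and lower expression of a smaller set that includes hypoxia and stress genes. Of the 13785 genes tested, 118 were higher in the combination (0.856%) and 33 were lower (0.239%) at an adjusted p under 0.05 in the limma fit, together 1.1%. The higher genes had a median log2 difference of 1.17 and the lower genes of -0.71, against 0.01 over all genes tested. A change of at least 2-fold was reached by 72 of the higher and 7 of the lower genes. All 151 genes had combination and trametinib arrays that did not overlap, while 16.6% of all genes tested had every combination array above every trametinib array and 12.3% had every combination array below. Of the 118 higher genes, 46 belong to 1 or more of 9 lists of interferon, antigen presentation and leukocyte genes, which hold 126 of the genes tested. For 11 of the 118 both trametinib arrays read under 5.79, so no fold is given for them, and a rank by size among them is uncertain.

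The calls rested on few arrays. Without trametinib replicate 2, which left 1 trametinib array, every call was lost. Without trametinib replicate 1, 24 were higher and 4 were lower. Without combination replicate 1, 2 or 3, the higher genes numbered 56, 37 or 84 and the lower genes 7, 5 or 18. When the 4 arrays with the highest Adipoq level were left out, combination replicate 1 stood alone against trametinib replicate 2. Most genes lost the call in that fit. All 118 and all 33 genes kept their sign whichever of these arrays were left out. That was fixed beforehand, since their combination and trametinib arrays did not overlap.

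**Figure D1:**
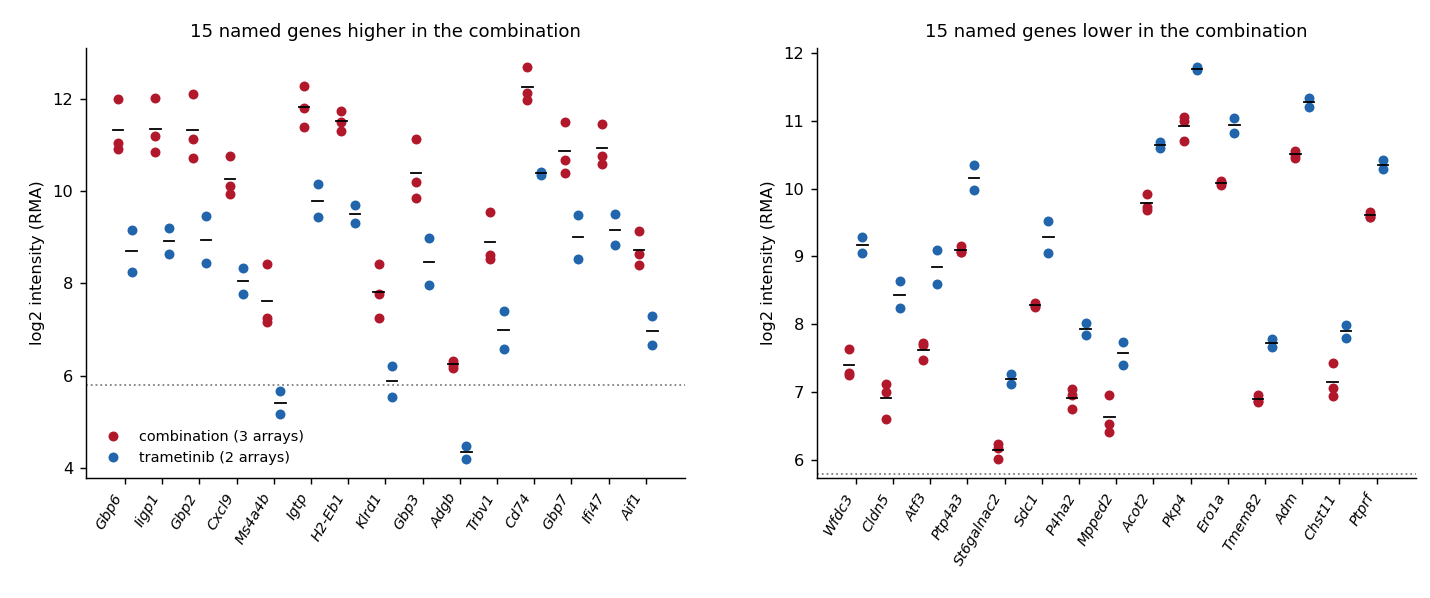
Log2 intensity (vertical axis) of the 15 genes with the largest rise (left panel) and the 15 with the largest fall (right panel). Each point is 1 array, red for the combination and blue for trametinib, short lines are group means, and the dotted line is the filter level of 5.79. The groups do not overlap for any of these 30 genes, and Ms4a4b and Adgb lie under the filter level on both trametinib arrays.

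Interferon gamma response genes were the group with the most calls for its size. Of 16 genes tested 11 rose and 0 fell, the median log2 difference was 1.63, and all 16 differences were above 0, as were 51.6% of the differences over all genes tested. The immunity-related GTPases and guanylate-binding proteins, which act on vacuoles that hold intracellular microbes, made up much of this group. Gbp2 read 10.72, 12.11 and 11.12 on the combination arrays, against 9.46 and 8.43 on the trametinib arrays. Every combination array was above both trametinib arrays, and Gbp2 rose 5.16-fold (log2 difference 2.37 ± 0.44 SE, adjusted p = 0.0307). Gbp6 read 11.04, 11.99 and 10.91 in the combination, against 9.15 and 8.26 with trametinib, a 6.10-fold rise (log2 2.61 ± 0.47 SE, adjusted p = 0.0306) that was the largest among the named genes. Within the combination, replicate 2 was the highest array for both genes, and within trametinib, replicate 1 was, and the same 2 arrays were the highest of their groups in Adipoq and in the 3′ over 5′ ratio.

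The GTPase Iigp1 read 10.85, 12.02 and 11.19 in the combination, against 9.20 and 8.63 with trametinib, and rose 5.43-fold (adjusted p = 0.00854). Igtp, another GTPase of that family, read 11.38, 12.27 and 11.80, against 10.16 and 9.43, and rose 4.06-fold (adjusted p = 0.0148). Ifi47 belongs to the same family and rose 3.41-fold (log2 1.77 ± 0.29 SE, adjusted p = 0.0206). Among the other guanylate-binding proteins Gbp3 rose 3.77-fold (adjusted p = 0.0306) and Gbp7 rose 3.60-fold (adjusted p = 0.0306). Their combination arrays read 9.85 to 11.12 for Gbp3, against 8.98 and 7.97 with trametinib, and 10.40 to 11.49 for Gbp7, against 9.49 and 8.53. Members of these families are similar in sequence, and the probe sets of Gbp2, Gbp3 and Iigp1 are of kinds that can read more than 1 transcript, so the share of each member is uncertain.

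Cxcl9, a chemokine that draws in T cells through the receptor CXCR3, read 9.93, 10.77 and 10.10 in the combination, against 8.33 and 7.76 with trametinib. It rose 4.66-fold (log2 2.22 ± 0.31 SE, adjusted p = 0.0121), with an SD of 0.44 within the combination arrays and 0.40 within the trametinib arrays.

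Of the 15 genes with the largest rise 10 had a promoter in the table, and 5 of these held the core of the interferon-stimulated response element, the sequence bound by interferon-activated factors, and they are shown for that reason. The sequences are from RefSeq (GRCm38.p6) and cover the 250 bases before the start of the gene, 5′ to 3′ on the gene's strand. Capitals mark matches on either strand to the response element core, GAAA, any 2 bases and GAAA, and to the core of the gamma-activated site, TTC, any 3 bases and GAA, which reads the same on both strands. The windows are chr3:142620413-142620662 for Gbp2, chr3:142559794-142560043 for Gbp3, chr3:142530086-142530335 for Gbp7 and chr11:58199306-58199555 for Igtp, all on the plus strand, and chr17:35176053-35176302 on the minus strand for Aif1, a macrophage gene described further on. The pair of response element matches in Gbp3 overlap each other, and in the other windows no matches overlap.
Gbp2: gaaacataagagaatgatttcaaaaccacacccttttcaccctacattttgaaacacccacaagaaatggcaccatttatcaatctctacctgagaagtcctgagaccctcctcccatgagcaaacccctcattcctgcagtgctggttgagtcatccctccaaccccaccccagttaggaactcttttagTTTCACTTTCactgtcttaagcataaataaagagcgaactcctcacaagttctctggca
Gbp3: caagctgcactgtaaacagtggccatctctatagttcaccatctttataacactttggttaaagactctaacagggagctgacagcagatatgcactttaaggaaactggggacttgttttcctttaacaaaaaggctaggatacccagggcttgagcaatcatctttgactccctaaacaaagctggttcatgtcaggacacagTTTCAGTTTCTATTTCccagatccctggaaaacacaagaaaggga
Gbp7: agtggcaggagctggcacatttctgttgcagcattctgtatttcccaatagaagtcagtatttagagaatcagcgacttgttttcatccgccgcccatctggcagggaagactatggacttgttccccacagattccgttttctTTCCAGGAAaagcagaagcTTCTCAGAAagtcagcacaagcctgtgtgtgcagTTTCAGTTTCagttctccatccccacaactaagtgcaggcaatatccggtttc
Igtp: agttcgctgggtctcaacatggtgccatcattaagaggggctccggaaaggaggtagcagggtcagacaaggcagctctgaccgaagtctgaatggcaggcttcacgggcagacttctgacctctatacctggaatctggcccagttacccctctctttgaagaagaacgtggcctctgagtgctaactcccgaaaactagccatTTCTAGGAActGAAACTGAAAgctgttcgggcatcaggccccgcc
Aif1: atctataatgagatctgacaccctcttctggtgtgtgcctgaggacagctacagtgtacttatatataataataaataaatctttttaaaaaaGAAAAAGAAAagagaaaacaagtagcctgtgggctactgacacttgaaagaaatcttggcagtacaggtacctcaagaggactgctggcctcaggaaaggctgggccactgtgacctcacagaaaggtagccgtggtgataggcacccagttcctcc

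In these windows the response element ended 49 bases before the start in Gbp2, 43 in Gbp7 and 24 in Igtp, and in Gbp3 the overlapping pair ended 35 and 29 bases before it. In Aif1 it ended 147 bases before the start, inside a run rich in adenine. Gbp7 also held the gamma-activated core at 97 and 78 bases and Igtp at 36 bases before the start. Of the 118 higher genes 91 had a promoter in the table, and 16 of these (17.6%) held the response element core, as did 2 of 29 lower genes (6.9%) and 3.46% of all genes in the table. The gamma-activated core stood in 15 of the 91 higher genes (16.5%), in 3 of 29 lower genes (10.3%) and in 8.13% of all genes. A match to these letters is a description of the window, and the absence of a match says only that the letters are not in it.

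Antigen presentation genes were higher in the combination for both classes of MHC molecule. Of 8 MHC class II genes tested 5 rose and 0 fell (median log2 difference 1.63), and of 16 genes for MHC class I and the supply of its peptides 5 rose and 0 fell (median 0.66). H2-Eb1, a chain of the class II molecule, read 11.50, 11.73 and 11.31 in the combination, against 9.71 and 9.31 with trametinib, and rose 4.01-fold (log2 2.0 ± 0.26 SE, adjusted p = 0.00854). Cd74, the invariant chain that occupies the class II groove before peptide loading, read 11.98, 12.68 and 12.13, against 10.36 and 10.42, and rose 3.67-fold (adjusted p = 0.0306). In both genes the lowest combination array was well above the highest trametinib array.

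H2-Ab1, another class II chain, read 12.03, 12.24 and 11.69 in the combination, against 10.42 and 10.11 with trametinib (log2 1.72, adjusted p = 0.0202). H2-DMa, which helps to exchange peptides on class II molecules, rose 3.0-fold (adjusted p = 0.0105). Ciita, the transactivator of the class II genes, rose by a smaller amount on the probe set kept (log2 0.77, adjusted p = 0.0215). It read 6.63, 6.76 and 6.52 in the combination, against 5.90 and 5.83 with trametinib, close to the filter level. Its other probe set showed a log2 difference of 1.42. H2-Aa missed the threshold, with a log2 difference of 1.67 and an adjusted p of 0.0633.

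The calls on the class I side included proteasome, transport and heavy chain genes. Psmb8, a catalytic subunit of the immunoproteasome, read 11.11, 11.57 and 10.99 in the combination, against 9.82 and 9.58 with trametinib, and rose 2.86-fold (adjusted p = 0.00854). Its partner subunit Psmb9 rose 2.68-fold (adjusted p = 0.0148), and the proteasome activator Psme1 rose 1.65-fold (adjusted p = 0.0215). Tap1, which moves peptides into the endoplasmic reticulum and is named after its values were seen, had a log2 difference of 1.26 (adjusted p = 0.0435), but its other probe set showed 0.01. Nlrc5, the transactivator of class I genes, had a log2 difference of 1.24 (adjusted p = 0.0369). The heavy chain genes H2-Q5 and H2-M3, outside the list and named after their values were seen, rose 2.48-fold and 2.30-fold (adjusted p = 0.0206 and 0.02). The classical heavy chain gene H2-K1 read 14.58, 14.68 and 14.60 in the combination, against 14.34 and 14.27 with trametinib, near the top of the array's range, and its log2 difference of 0.31 did not pass (adjusted p = 0.106). Heavy chain genes are similar in sequence, so their probe sets may share transcripts.

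Of 19 type I interferon response genes 4 rose and 0 fell, with a median log2 difference of 0.84 and all 19 differences above 0. Oas1a, a sensor of viral RNA, rose 2.55-fold, Irf7, a transcription factor of the interferon response, 2.57-fold, Ifi35 1.79-fold and Ifit2 1.63-fold (adjusted p = 0.0192, 0.039, 0.0382 and 0.0435). Irf7 read 8.22, 9.35 and 8.39 in the combination, against 7.37 and 7.22 with trametinib, so that replicate 2 stood about 1 unit above the other combination arrays. Ifit1 had a log2 difference of 1.03 that did not pass (adjusted p = 0.245). Many genes of this list are also known to respond to interferon gamma.

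**Figure D2:**
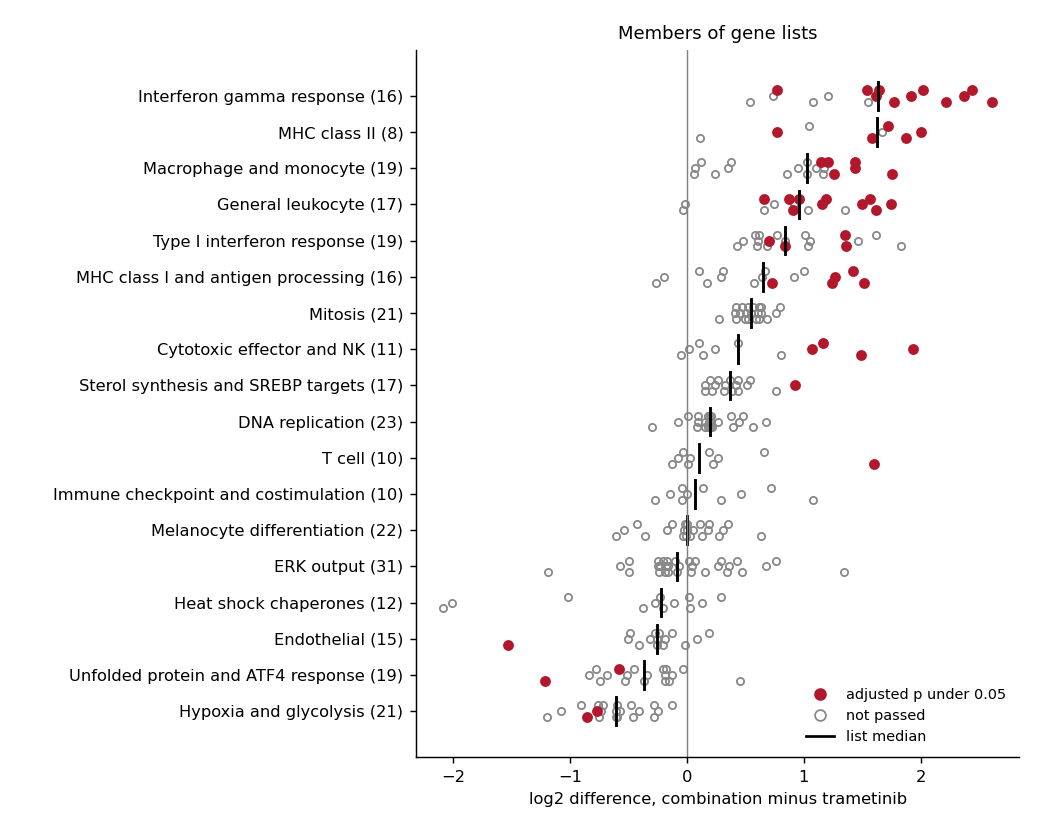
Log2 difference of combination minus trametinib (horizontal axis) for each tested member of 18 gene lists (rows, with the number tested). Filled red points passed an adjusted p of 0.05, open points did not, and black lines are list medians. The medians run from 1.63 for the interferon gamma list to -0.60 for the hypoxia list.

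General leukocyte genes were higher in the combination as well, with 10 of 17 rising, 0 falling and a median log2 difference of 0.96. Ptprc, which encodes the leukocyte antigen CD45, read 9.51, 9.83 and 9.37 in the combination, against 8.35 and 7.80 with trametinib, and rose 2.82-fold (adjusted p = 0.0206). Cd52 rose 3.36-fold, the actin regulator Coro1a 3.07-fold and the integrin chain Itgb2 2.97-fold, each with an adjusted p of 0.00854. The dabrafenib arrays of Ptprc read 9.31 and 10.08 and the vehicle arrays 6.67 and 6.94, so trametinib tumours lay between vehicle tumours and both kinds of tumour given dabrafenib.

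Macrophage and monocyte genes followed, with 6 of 19 rising, 0 falling, a median log2 difference of 1.03 and all 19 differences above 0. Aif1, the macrophage gene whose promoter is shown above, read 8.65, 9.15 and 8.40 in the combination, against 7.29 and 6.66 with trametinib, and rose 3.38-fold (log2 1.76 ± 0.30 SE, adjusted p = 0.0234). C1qc, a chain of complement component C1q, rose 2.39-fold, the antibody receptor Fcgr1 2.31-fold and the adaptor Tyrobp 2.22-fold (adjusted p = 0.0206, 0.0215 and 0.0267). The other probe set of Fcgr1 showed a log2 difference of only 0.37. Csf1r, the receptor of the macrophage growth factor, had a log2 difference of 1.17 that did not pass (adjusted p = 0.0884). Of 14 genes linked with alternative activation of macrophages 0 rose and 0 fell, with a median of 0.51. For Ccl8 the log2 difference was 1.22 (adjusted p = 0.0669), and for Arg1, with 6.93, 7.55 and 7.25 in the combination against 6.68 and 6.19 with trametinib, it was 0.81 (adjusted p = 0.479).

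Of 11 cytotoxic and natural killer genes 4 rose and 0 fell, with a median log2 difference of 0.44 and 10 differences above 0. Klrd1, a receptor chain of natural killer cells and activated CD8 T cells, read 7.78, 8.42 and 7.26 in the combination, against 6.21 and 5.55 with trametinib, and rose 3.83-fold (adjusted p = 0.0215). The granule protease Gzma read 7.16, 7.55 and 6.80, against 5.99 and 6.03, and rose 2.24-fold (adjusted p = 0.0306). Ccl5 rose 2.81-fold and Nkg7 2.10-fold (adjusted p = 0.0307 and 0.0435). Gzmb read 6.49, 7.23 and 5.96 in the combination, against 5.77 and 5.75 with trametinib, and did not pass (log2 0.80, adjusted p = 0.228).

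T cell genes gave fewer calls. Of 10 tested 1 rose and 0 fell, the median log2 difference was 0.11, and 6 of the list's genes read under the filter level on every array. Cd3g, which encodes the gamma chain of CD3, read 6.35, 7.42 and 6.59 in the combination, against 5.32 and 5.06 with trametinib (adjusted p = 0.0192). Cd3d had a log2 difference of 0.66 (adjusted p = 0.0763) and Cd3e of 0.19, with a 95% interval from -0.11 to 0.49. Cd8a, which marks the T cells that carry the pmel-1 receptor and is named after its values were seen, read 6.46, 6.52 and 6.49 in the combination, against 6.54 and 6.42 with trametinib, so this probe set did not separate the groups, while its other probe set had a log2 difference of 0.56.

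Outside the lists, the lymphocyte gene Ms4a4b read 7.17, 8.43 and 7.25 in the combination, against 5.68 and 5.16 with trametinib (adjusted p = 0.0152). Trbv1, a segment of the T cell receptor beta chain, read 8.61, 9.54 and 8.53, against 7.41 and 6.57, and rose 3.73-fold (adjusted p = 0.0192) on a probe set of a kind that can match several transcripts. Adgb, which encodes androglobin, read 6.23, 6.33 and 6.17 in the combination, against 4.49 and 4.20 with trametinib (adjusted p = 0.00854). No size is given for Ms4a4b and Adgb, or for Cd3g above, because both trametinib arrays were under the filter level. Adgb was the only gene among the 15 with the largest rise that read lower on the combination arrays than on both dabrafenib arrays, which were at 6.64 and 7.21.

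Of 11 dendritic cell genes 1 rose, Bst2 (log2 1.65, adjusted p = 0.00854), which is also induced by interferon in many cells, and the median was -0.03. Of 10 immune checkpoint and costimulation genes 0 rose and 0 fell. Cd274, which encodes PD-L1, read 8.51, 8.92 and 8.24 in the combination, against 7.5 and 7.45 with trametinib, and its 2.12-fold difference did not pass (adjusted p = 0.0839). Regulatory T cell (3 tested), neutrophil (7), eosinophil and mast cell (5) and B cell (5) lists had 0 calls, and most of their members read near or under the filter level.

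The 33 lower genes were smaller in effect and more mixed in function. Wfdc3, which encodes a protein with a whey acidic protein domain, read 7.28, 7.26 and 7.64 in the combination, against 9.28 and 9.05 with trametinib, and changed by -1.77 ± 0.32 SE on the log2 scale (adjusted p = 0.0306), while its other probe set showed -0.16. Cldn5, a tight junction protein of endothelium, read 6.60, 7.12 and 7.0, against 8.63 and 8.24 (log2 -1.53 ± 0.25 SE, adjusted p = 0.0206). The groups were apart by more than 1 unit in both genes. Cldn5 was the only gene of 15 endothelial genes tested to pass, and the list's median was -0.26. Pecam1, a general endothelial marker, had a log2 difference of -0.20, with a 95% interval from -0.57 to 0.17.

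Stress and hypoxia genes were among the lower ones. Atf3, a transcription factor induced by stress, read 7.72, 7.69 and 7.47 in the combination, against 8.59 and 9.10 with trametinib (log2 -1.22 ± 0.22 SE, adjusted p = 0.0306). Of 21 hypoxia and glycolysis genes 2 fell and 0 rose, with a median log2 difference of -0.60 and no difference above 0. The 2 that fell were Ero1a, an oxidase that helps disulphide bonds to form, with 10.09, 10.05 and 10.11 against 10.82 and 11.04 (log2 -0.85, adjusted p = 0.0307), and Adm, the vasodilator adrenomedullin, with 10.45, 10.50 and 10.56 against 11.34 and 11.21 (log2 -0.77, adjusted p = 0.0492). The glucose transporter gene Slc2a1 read 10.62, 10.54 and 10.67 in the combination, against 11.68 and 11.94 with trametinib, and did not pass (log2 -1.20, adjusted p = 0.0893). P4ha2, a collagen prolyl hydroxylase, was also lower (log2 -1.01, adjusted p = 0.0307).

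Of 19 genes of the unfolded protein and ATF4 response 2 fell, Atf3 and Hspa5, and 0 rose, with a median of -0.37. Hspa5, the main chaperone of the endoplasmic reticulum, read 12.94, 12.80 and 12.95 in the combination, against 13.45 and 13.51 with trametinib (log2 -0.58, adjusted p = 0.0423), although 1 of its 2 other probe sets showed a difference of 0.03. Its promoter is shown because, among the 29 lower genes with a promoter in the table, it alone held the endoplasmic reticulum stress element, CCAAT and CCACG with any 9 bases between them, which 0.13% of all genes in the table hold on either strand. The match, in capitals, ends 46 bases before the start in the window chr2:34771840-34772089 on the plus strand.
Hspa5: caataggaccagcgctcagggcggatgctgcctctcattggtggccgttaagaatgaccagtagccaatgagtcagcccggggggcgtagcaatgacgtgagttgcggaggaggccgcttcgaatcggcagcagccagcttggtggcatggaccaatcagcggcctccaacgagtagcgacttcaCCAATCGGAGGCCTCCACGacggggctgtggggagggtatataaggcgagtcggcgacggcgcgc

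Of 12 heat shock chaperone genes 0 passed, and the inducible chaperones were close to the threshold. Hspa1b read 9.70, 9.88 and 10.35 in the combination, against 12.06 and 11.92 with trametinib (log2 -2.01, adjusted p = 0.0538), and Hspa1a had a log2 difference of -2.08 (adjusted p = 0.0633). These were larger differences than that of any gene that fell, but the arrays of other groups varied more, since Hspa1b read 11.97 and 10.39 in vehicle tumours.

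Other genes among the named falls had varied functions. Sdc1, which encodes the heparan sulphate proteoglycan syndecan-1, read 8.28, 8.25 and 8.31 in the combination, against 9.06 and 9.53 with trametinib (log2 -1.01, adjusted p = 0.0306). Its 3 other probe sets showed -0.25, -0.87 and -0.24. The phosphatase genes Ptp4a3 and Ptprf changed by -1.06 and -0.75 (adjusted p = 0.0152 for both). Pkp4, a plakophilin of cell junctions, changed by -0.85 (adjusted p = 0.0129), and Chst11, a chondroitin sulphotransferase, by -0.75 (adjusted p = 0.0355). Mpped2 changed by -0.93 (adjusted p = 0.0307).

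Some genes lower in the combination were highest in tumours given trametinib alone. St6galnac2, a sialyltransferase, read 6.23, 6.02 and 6.18 in the combination, 6.4 and 6.01 with dabrafenib, 7.12 and 7.27 with trametinib, and 6.33 and 6.43 with vehicle. Acot2, a mitochondrial thioesterase, read 9.73, 9.69 and 9.93 in the combination, 9.69 and 9.77 with dabrafenib, 10.60 and 10.68 with trametinib, and 10.06 and 9.75 with vehicle. Tmem82 read 6.96, 6.87 and 6.85 in the combination, 6.90 and 6.67 with dabrafenib, 7.66 and 7.78 with trametinib, and 6.07 and 6.21 with vehicle. In these 3 genes, and in Wfdc3, Cldn5, Pkp4 and Adm, both trametinib arrays were above every array of the other pmel-1 groups. The naming rule had already set both trametinib arrays above every combination array, as in 12.3% of all genes tested. The share of all genes with the whole pattern was not counted. The log2 difference of combination minus trametinib was -1.05 for St6galnac2, -0.86 for Acot2 and -0.82 for Tmem82 (adjusted p = 0.0152, 0.0129 and 0.00854).

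Targets of the drugs' own pathway showed no call. Of 31 genes of ERK output 0 rose and 0 fell, and the median log2 difference was -0.08, close to the 0.01 over all genes tested. Dusp6, a phosphatase induced by ERK and a common readout of the pathway, read 11.81, 11.87 and 12.32 in the combination, against 11.63 and 10.84 with trametinib (log2 0.76, 95% interval from 0.02 to 1.51, adjusted p = 0.375). Fos, an immediate early gene, read 9.70, 9.37 and 10.07, against 10.89 and 10.92 (log2 -1.19, adjusted p = 0.138). For Egr1 the log2 difference was 0.02, with a 95% interval from -0.67 to 0.71. Both groups were set against the same vehicle arrays, with 17 of the 31 genes lower in the combination than with vehicle and 15 of 31 lower with trametinib, where 21.2% and 19.1% of all genes tested were lower (45.6% and 38.6% called in either direction).

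Melanocyte differentiation genes showed no call either, with 0 of 22 and a median of -0.00. Mitf, the main transcription factor of melanocytes, read 13.36, 13.47 and 13.49 in the combination, against 13.46 and 13.47 with trametinib, a log2 difference of -0.02 with a 95% interval from -0.21 to 0.17. Mc1r, the receptor of melanocyte-stimulating hormone, had a log2 difference of 0.63 (adjusted p = 0.122). Kcnj13, a potassium channel that melanocytes express, had one of -0.61 (adjusted p = 0.309). The 19 neural crest and dedifferentiation genes and the 17 receptor tyrosine kinase genes had 0 calls, with medians of 0.01 and 0.02.

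The mitosis and DNA replication lists had no call, although some genes of these processes outside the lists rose, as given further on. All 21 mitosis genes had differences above 0, with a median of 0.55 and 0 calls. Top2a, a topoisomerase of dividing cells, read 11.83, 11.82 and 11.61 in the combination, against 11.18 and 11.27 with trametinib (log2 0.53, adjusted p = 0.0546). Cdk1, the kinase that starts mitosis, had a log2 difference of 0.56 (adjusted p = 0.0601), and Mki67 of 0.47 (adjusted p = 0.226). Of 23 DNA replication genes 0 passed, with a median of 0.19, and Rrm2, a subunit of ribonucleotide reductase, had a log2 difference of 0.68 (adjusted p = 0.076).

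Of 17 sterol synthesis genes tested 1 rose, all differences were above 0 and the median was 0.37. Cyp51, a demethylase of cholesterol synthesis, read 9.80, 9.57 and 9.74 in the combination, against 8.92 and 8.63 with trametinib, and rose 1.90-fold (adjusted p = 0.0477). Idi1, an earlier enzyme of the pathway, had a log2 difference of 0.77 (adjusted p = 0.0633).

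Lists of other cell types and processes had 0 calls. They were fibroblast and matrix (21 genes, median 0.02), adipocyte (11, 0.13), skeletal muscle (8, -0.08), keratinocyte (5, -0.05), gland epithelium (9, -0.11), erythroid (3, -0.14), cell cycle inhibitors (16, -0.07), apoptosis regulators (13, 0.01), oxidative stress (12, -0.11), lysosome (19, -0.06), oxidative phosphorylation (18, -0.00), ribosome biogenesis (20, 0.05) and TGF beta and Id genes (16, -0.19). The 9 housekeeping genes had differences between -0.09 and 0.18.

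**Figure D3:**
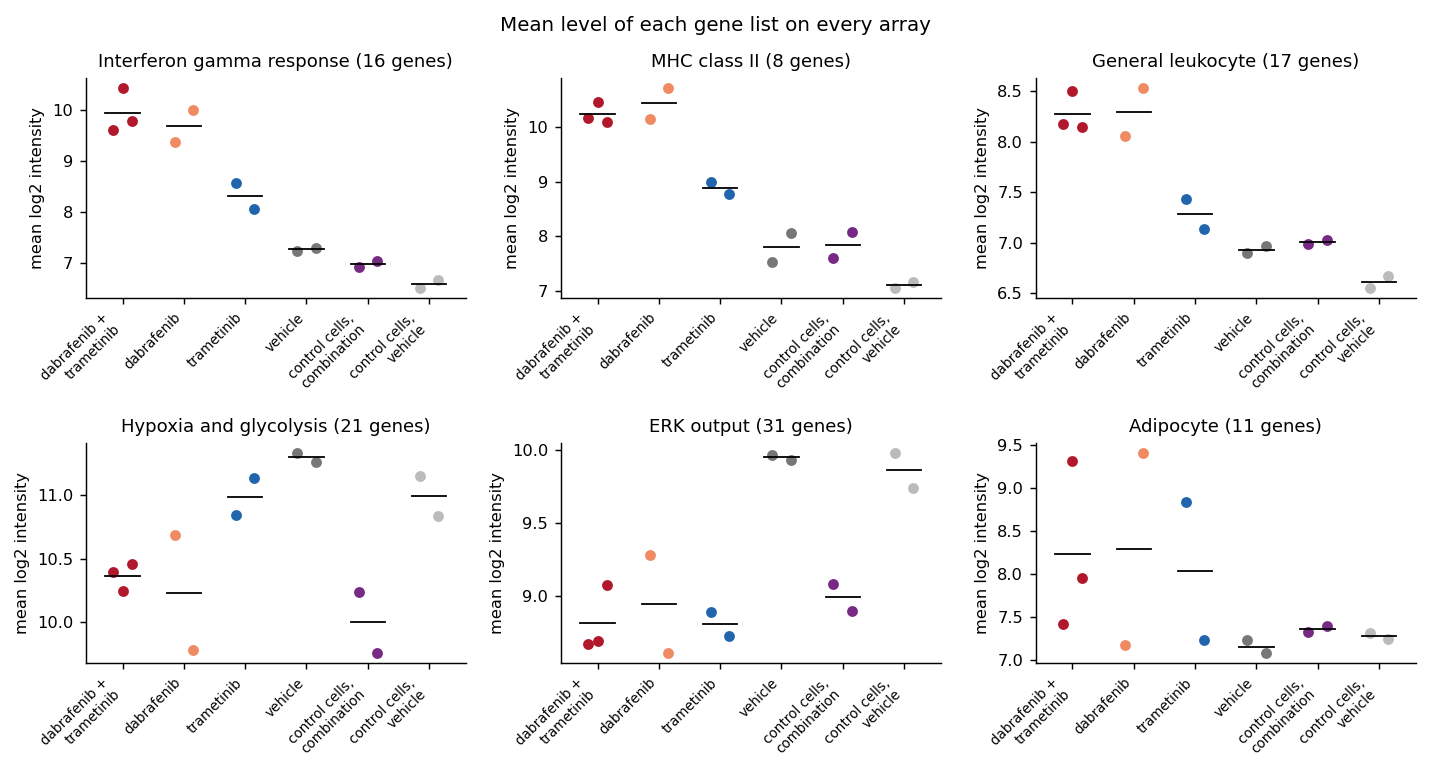
Mean log2 intensity (vertical axis) of the tested genes of 6 lists on each array (points) in the 6 groups, with group means as lines. For the interferon gamma, MHC class II and leukocyte lists the combination and dabrafenib arrays lie above the trametinib arrays, the ERK output means of the 3 drug groups overlap, and the adipocyte means vary within groups.

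The list means per array place these results among all groups. The interferon gamma list averaged 9.60, 10.42 and 9.78 on the combination arrays, 9.36 and 9.99 on the dabrafenib arrays, 8.57 and 8.05 on the trametinib arrays, and 7.24 and 7.30 on the vehicle arrays. Trametinib tumours thus lay between vehicle tumours and the 2 groups given dabrafenib, with no overlap. The hypoxia list averaged 10.40, 10.25 and 10.46 in the combination, 10.69 and 9.78 with dabrafenib, 10.84 and 11.13 with trametinib, and 11.33 and 11.27 with vehicle. The ERK output list averaged 8.68, 8.70 and 9.08 in the combination, 9.28 and 8.61 with dabrafenib, 8.89 and 8.73 with trametinib, and 9.97 and 9.94 with vehicle, so the drug groups overlapped each other and lay apart from vehicle.

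The addition of dabrafenib can also be read from 4 other arrays, dabrafenib against vehicle in pmel-1 recipients, which share no array with the comparison above. Both comparisons come from the same fit and use the same variance for each gene, so their calls are not independent. Of the 118 genes higher in the combination than with trametinib, 97 (82.2%) were higher with dabrafenib than with vehicle, where 21.8% of all genes tested were higher and 41.4% were called in either direction. They make up 3.22% of the 3012 genes higher in that comparison. Of the 33 lower genes 19 (57.6%) were lower with dabrafenib, where 19.6% of all genes were, and they make up 0.704% of the 2697 lower genes there. Across all 13785 genes the differences of the 2 comparisons correlated with a Pearson r of 0.383 and a Spearman rho of 0.235, a description over genes, which are not independent replicates.

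**Figure D4:**
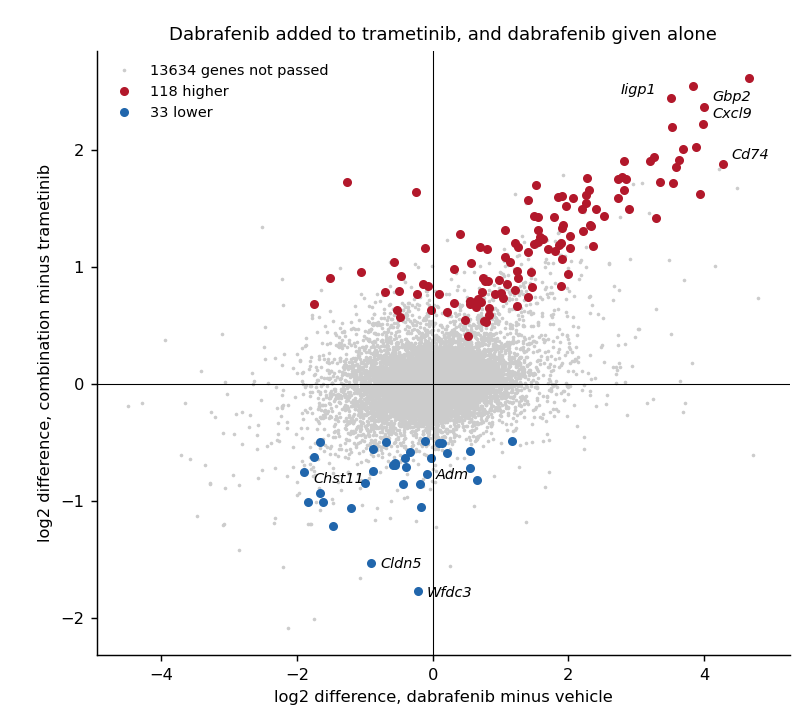
Log2 difference of combination minus trametinib (vertical axis) against that of dabrafenib minus vehicle (horizontal axis) for 13785 genes, from arrays that do not overlap. Red points are the 118 genes higher and blue points the 33 genes lower in the combination. The interferon-induced genes Gbp2, Iigp1, Cxcl9 and Cd74 lie far to the upper right, and Wfdc3 lies low near the vertical axis.

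Some genes went the other way in that comparison. Of the 118, 9 (7.63%) were lower with dabrafenib than with vehicle, where 19.6% of all genes tested were lower, and 12 were not called. Of the 33, 4 (12.1%) were higher, where 21.8% of all genes tested were higher, and 10 were not called. The 9 are named here after their values were seen: Tk1, Pole2, Ncapg2 and Smc2 (combination minus trametinib 0.90, 0.68, 0.79 and 0.57), which act in DNA synthesis or chromosome condensation, and Moxd1, Sema3g, Slc22a23, Dhrs2 and Gstcd. Tk1, thymidine kinase, read 9.02, 8.84 and 8.67 in the combination, 8.60 and 8.58 with dabrafenib, 7.84 and 8.05 with trametinib, and 10.12 and 10.10 with vehicle. Pole2, a subunit of DNA polymerase epsilon, read 7.34, 7.35 and 7.46, then 7.20 and 7.19, then 6.67 and 6.73, and 8.96 and 8.91 in the same 4 groups. In both genes every drug group lay below vehicle and trametinib lay lowest. The 4 genes lower here and higher with dabrafenib, also named after their values were seen, were Tmem82, Rnase1, Scube3 and Slc25a34.

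Control recipients gave a further set of arrays with none shared, though in the same fit with the same variances, the combination against vehicle without pmel-1 cells. There 35 of the 118 genes (29.7%) were higher, 12 (10.2%) were lower and 71 were not called. Of all genes tested 18.7% were higher and 16.7% lower. Of the 33 lower genes 12 (36.4%) were lower, where 16.7% of all genes were. Cxcl9 read 4.10 and 4.54 in control recipients given both drugs and 4.33 and 4.27 in control recipients given vehicle, under the filter level on all 4 arrays. Chst11 read 7.08 and 6.94, against 9.24 and 8.99, in these same groups (log2 -2.10, adjusted p = 5.7e-06).

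Against tumours given dabrafenib alone, the combination gave no calls. In that comparison, which shares the combination arrays, 0 of 13785 genes passed in limma, 246 (1.78%) had an unadjusted p under 0.05, and the smallest adjusted p was 0.999972. Between the same groups the correlation of arrays over all genes ran from 0.985 to 0.994, and between combination and trametinib arrays from 0.977 to 0.992. For the 15 named rises the log2 difference of combination minus dabrafenib lay between -0.68 and 0.50, and for the 15 named falls between -0.13 and 0.25. The intervals were wide: for Gbp2 the difference was 0.44, with a 95% interval from -0.53 to 1.40, and for Cd74 it was -0.48, with an interval from -1.23 to 0.27. A gene that fails to pass is not shown to be equal in the 2 groups.

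The design also allows a test of whether adding dabrafenib changed a gene by another amount on trametinib than on vehicle. This non-additivity is the log2 difference of combination minus trametinib, less that of dabrafenib minus vehicle. It was positive for 1631 genes (11.8%) and negative for 1558 (11.3%) at an adjusted p under 0.05. The genes with the largest values were ones that either drug moved far from vehicle and that the second drug moved little further. Hmga2, a chromatin protein of embryonic and tumour cells, read 6.22, 6.02 and 6.30 in the combination, 7.22 and 6.04 with dabrafenib, 6.27 and 6.47 with trametinib, and 10.80 and 11.43 with vehicle. Its non-additivity was 4.29 ± 0.48 SE (adjusted p = 0.00029), while its combination and trametinib arrays overlapped.

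Egr1, an immediate early gene of the ERK pathway, read 7.43, 7.45 and 8.11 in the combination, 7.72 and 7.23 with dabrafenib, 8.05 and 7.24 with trametinib, and 10.66 and 10.41 with vehicle (non-additivity 3.08 ± 0.46 SE, adjusted p = 0.0013). Csn3, Hapln1, Myrfl, Itga8, Lyve1 and Hoxa11 had the same shape, with values from 3.09 to 4.31. Of these, Hapln1 and Lyve1 read under the filter level on every array of the 3 drug groups, and so did Myrfl, so the size of their values is uncertain. In all 8 genes each vehicle array of the pmel-1 recipients was above each array of the drug groups.

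The negative side ran the other way. Kcnj13 read 11.16, 11.27 and 10.96 in the combination, 10.93 and 11.02 with dabrafenib, 11.56 and 11.92 with trametinib, and 6.34 and 6.18 with vehicle (non-additivity -5.33 ± 0.37 SE, adjusted p = 2.5e-05). Trpm1, a cation channel of melanocytes, read 11.96, 12.15 and 12.48 in the combination, 11.88 and 11.97 with dabrafenib, 12.32 and 12.02 with trametinib, and 8.0 and 8.55 with vehicle (-3.62 ± 0.39 SE, adjusted p = 0.00027). Gpr143, a melanosome receptor, had -3.89, and Mgll, Hhatl, Astn1, Nrip3 and Sytl2 lay between -4.07 and -3.33. Each drug group read above vehicle on every array in these 8 genes. For Trpm1 the combination minus trametinib difference was 0.03 on the probe set kept, while the 3 other probe sets showed -0.53, -0.55 and -0.42. For Nrip3 it was -0.13, while the 1 other probe set showed 0.23.

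**Figure D5:**
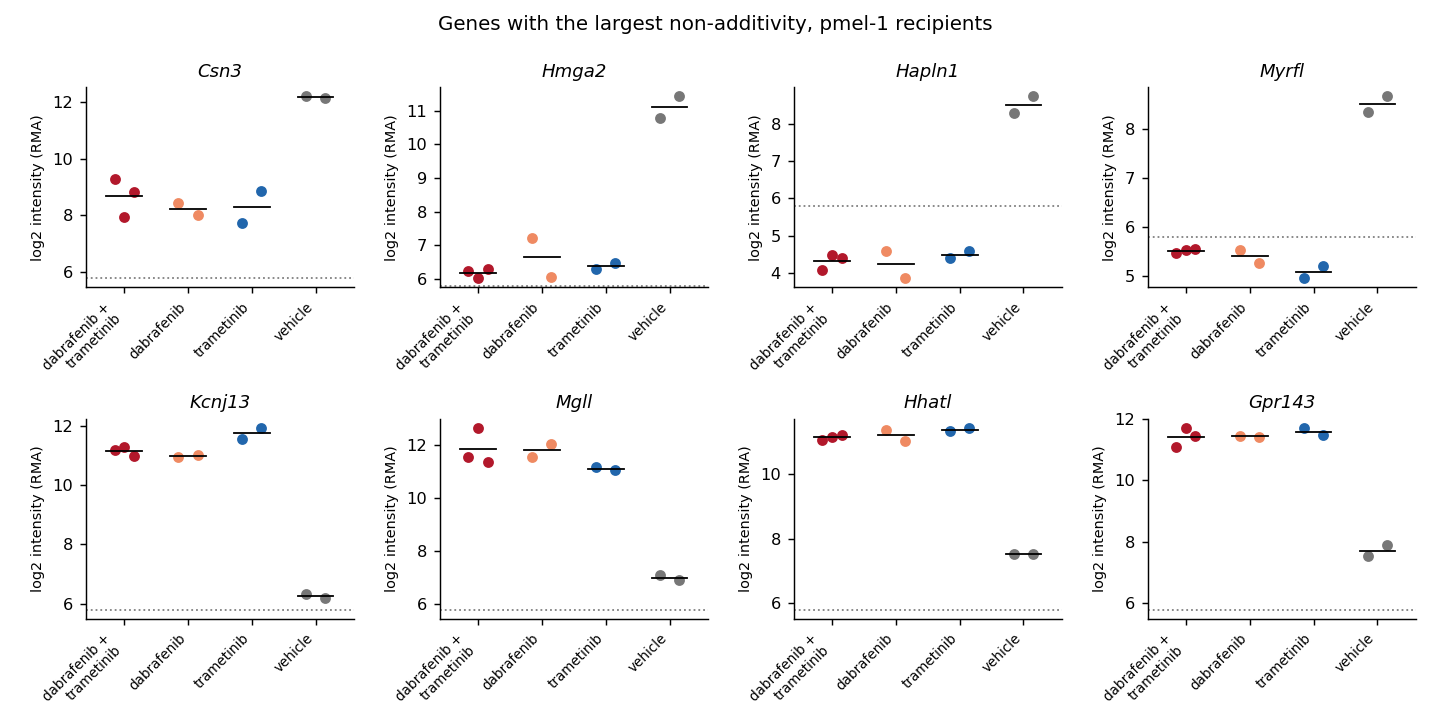
Log2 intensity (vertical axis) of the 4 genes with the most positive (upper row) and the 4 with the most negative non-additivity (lower row) in the pmel-1 recipients. Points are arrays, short lines are group means, and the dotted line is the filter level of 5.79. In each gene the 3 drug groups lie together and the vehicle arrays lie apart.

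Among the 15 named rises, 7 had a non-additivity that passed, all negative. Of all genes tested 23.1% passed, and 11.3% were negative. For 6 of the 7 named rises dabrafenib raised the gene by more on vehicle than on trametinib. For the other, Adgb, all trametinib and vehicle arrays were under the filter level, so its rises cannot be compared. Cd74 had the largest, -2.40 ± 0.51 SE (adjusted p = 0.0071), with a log2 difference of 4.27 for dabrafenib minus vehicle against 1.87 for combination minus trametinib. Igtp and Cxcl9 had -1.86 and -1.77, and Gbp7, Gbp3 and H2-Eb1 lay between -1.74 and -1.68. For Gbp2 it was -1.62 and did not pass (adjusted p = 0.098), and for Aif1 it was -0.52 (adjusted p = 0.45). Among the 15 named falls 6 passed, with Chst11 and Sdc1 positive and Wfdc3, Tmem82, St6galnac2 and Acot2 negative. The falls were picked on combination minus trametinib, the first part of this value, which favours negative values. Those 4 negative genes were among the 7 that were highest with trametinib alone, a pattern read from the same arrays.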

How the data were processed

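The authors' deposited values are log2 probe set intensities, made with RMA and the affy package per the submitters' processing notes, without versions. Since RMA scales arrays to each other, a shift common to all genes would be removed. Precision is limited by the number of arrays.

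The array holds 45101 probe sets, of which 34945 had 1 gene symbol, 932 several, 9160 none, and 64 were controls. For each of 18193 symbols (0 were updated) the brightest probe set on average was kept. The 13785 genes above the 40th percentile (5.79) on at least 2 of 13 arrays were tested, so a gene could enter through the group in which it is high. Means of the 6 groups were fitted in limma 3.58.1 (R 4.3.3) with lmFit and eBayes on 7 residual degrees of freedom. Benjamini-Hochberg adjustment was done per comparison, and genes under 0.05 are said to rise, fall, or be higher or lower. The script was tested on simulated data. With 3 arrays against 2, an exact permutation test of a single value cannot go below 0.1.

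Genes were named by rule: the 15 strongest rises and 15 strongest falls among called genes whose groups did not overlap and whose brighter group was above the filter level, the 8 strongest per direction for the non-additivity, and in each list an anchor gene and at most 4 members of smallest p. Genes that identify the tissue are given beside them, any other gene is marked as chosen after its values were seen, and clone symbols were not named. The comparison, the 40 gene lists (704 symbols, 643 measured) and the motifs were chosen with earlier results of these data known, so counts over lists are descriptions. Replicate numbers were not used as pairs in the main fit. Combination and trametinib arrays of the same number deviated in opposite directions (r = -0.46 in both pairs), and 4 of 23 same-number pairs had r over 0.1. In groups of 2 arrays the deviations mirror each other. Adipoq was highest of its group on combination replicate 2 and trametinib replicate 1, so these values cannot show whether a batch was shared by number. Alternatives covered the arrays fitted, the filter, the probe set kept, centring, quantile normalization, array weights, eBayes options, the replicate block, covariates and each array left out. Promoter windows come from RefSeq (GRCm38.p6).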

Additional observations from a re-analysis of the deposited data

Results flagged for a closer look

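The effect of adding dabrafenib differed with the background drug, trametinib or vehicle, for the genes below, by the limma test of the difference itself (log2 difference of combination minus trametinib, less dabrafenib minus vehicle). It was positive for 1631 genes and negative for 1558.

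Of the interferon-induced and antigen presentation genes named as rises, those that passed were all on the negative side. Gbp6, Gbp2, Iigp1 and Ifi47 did not pass in limma, with -2.06, -1.62, -1.07 and -1.02 (adjusted p = 0.0563, 0.0981, 0.104 and 0.114). Among those that passed, the differences were -2.40 for Cd74, -1.86 for Igtp, -1.77 for Cxcl9, -1.74 for Gbp7, -1.72 for Gbp3 and -1.68 for H2-Eb1. Adgb, another named rise that passed, had -1.30, with its trametinib and vehicle arrays all under the filter level. Among the genes named as falls, Wfdc3 had -1.56, Tmem82 had -1.47, St6galnac2 had -0.89 and Acot2 had -0.68, while Chst11 had 1.14 and Sdc1 had 0.83.

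Genes with the most positive differences were higher on both vehicle arrays than on any drug array of the pmel-1 recipients. The values were 4.31 for Csn3, 4.29 for Hmga2, 4.11 for Hapln1, 3.52 for Myrfl, 3.52 for Itga8, 3.48 for Lyve1, 3.09 for Hoxa11 and 3.08 for Egr1. Genes with the most negative differences were lower on both vehicle arrays than on those drug arrays, with -5.33 for Kcnj13, -4.07 for Mgll, -3.93 for Hhatl, -3.89 for Gpr143, -3.64 for Astn1, -3.62 for Trpm1, -3.38 for Nrip3 and -3.33 for Sytl2. No outlying array could be tested in groups of 2 or 3.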

How the results depend on the processing

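None of the 30 genes named as rises or falls, or of the 16 named for the non-additivity, reversed that value under any alternative run. For the 30 this was fixed beforehand where arrays were left out, because they were named only if their groups did not overlap. The filter, the eBayes options and the fit on only the groups compared leave the differences of all these genes unchanged. The other genes named were not followed singly. With the most variable probe set per gene, 117 of the 118 higher genes had a difference above 0. With combination against trametinib (118 higher, 33 lower), the counts were 221 and 65 with array weights. They were 295 and 78 when the RNA quality ratio (3′ over 5′) was added as a covariate, and 285 and 77 when the adipocyte mean was. Quantile normalization gave 50 lower genes. Fitted on only the 5 arrays compared, 93 genes were higher and 37 lower. These included 66 of the 118 and 15 of the 33, and 8 of the 30 genes named as rises or falls lost the call. The replicate block, which takes the replicate number as a batch, left 12 higher and 0 lower. Whether the number marks a batch is not stated. Leaving out 1 array gave 0 to 84 higher and 0 to 18 lower genes, and all 30 genes named as rises or falls lost the call without trametinib replicate 2. Without the 4 arrays with the highest Adipoq level, an alternative chosen after seeing the data, 22 were higher and 1 was lower.

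For the non-additivity (1631 positive, 1558 negative), leaving out 1 array gave 1043 to 1831 positive and 908 to 1798 negative genes. The RNA quality covariate left 1019 negative genes, and leaving out the 4 arrays left 313 positive and 325 negative. Of the 16 genes named for it, 13 kept the call under every alternative run. Fewer arrays enter the fits that leave arrays out. For the other changes in count the cause was not tested.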

Other observations

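Fabp7, Pmp2 and Ntrk3, genes outside the named set, were chosen after their values were seen, and no list stands behind them. Fabp7, a fatty acid-binding protein, read 11.12, 10.84 and 11.06 in the combination, against 9.75 and 9.64 with trametinib (log2 1.31, adjusted p = 0.00854 in limma). Pmp2, a myelin protein, had a log2 difference of 1.61 (adjusted p = 0.0116), and Ntrk3, a neurotrophin receptor, of 1.33 (adjusted p = 0.0148), with 0.1 and 0.72 on its 2 other probe sets. The neural crest and dedifferentiation list had 0 calls among 19 genes and a median of 0.01. Fabp7 also read 11.68 and 11.50 in control recipients given both drugs, against 8.68 and 9.05 in control recipients given vehicle.

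Casp12 and Casp4, chosen in the same way, read 9.59, 9.71 and 9.35 and 10.23, 10.11 and 10.18 in the combination, against 8.44 and 8.03 and 9.18 and 9.35 with trametinib (log2 1.31 and 0.91, adjusted p = 0.00854 and 0.0402). No statement on other caspases follows from these genes.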
